A study of Arabidopsis thaliana with 12 samples.

Results

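The genes described here are 10 inhibitors of cyclin-dependent kinases (CDKs) in Arabidopsis thaliana, 5 of the SIAMESE and SIAMESE-RELATED type (SIM, SMR1, SMR4, SMR5 and SMR7) and 5 of the KIP-RELATED PROTEIN type (KRP1, KRP2, KRP3, KRP4 and KRP6). They were taken by gene identifier from the 32833 genes of the deposited tables. RNA sequencing of seedlings at 12 days after germination gave 12 libraries in 4 groups of 3. In experiment 2, fas2-4 mutant seedlings were set against wild type Col-0 (Columbia-0). In experiment 1, seedlings labelled hira-1 were set against a separate Col-0 group. The sample titles call these Group2 and Group1, and the word experiment is used for them only here. After 4 days of stratification at 4 °C, all plants were grown at 21 °C in soil in long days, with no other treatment named. FAS2 is a subunit of the chaperone complex CAF-1, which places histone H3.1 behind the replication fork, and HIRA is a chaperone for the replacement histone H3.3. The labels do not say whether the replicates came from separate plantings, so the p-values measure only the spread between these libraries.

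CDKs drive the plant cell through DNA replication and division when they are bound to cyclins. The SIM and SMR proteins and the KRP proteins bind these complexes and hold them inactive, and cells that carry more of them tend to stop dividing and to copy their DNA without division (endoreduplication). SIM was found through a mutant with multicellular leaf hairs, and SMR1, also called LGO, is needed for the giant cells of sepals. SMR5 and SMR7 are known as targets of SOG1, the transcription factor at the centre of the plant DNA damage response. KRP proteins share a CDK-binding end with the Kip inhibitors of animals.

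Libraries held 39258873 to 39510509 counts in experiment 2, and those of experiment 1 held 20700171 to 21902258. The mutated genes themselves did not separate the groups. FAS2 had 197, 207 and 281 counts in the fas2-4 libraries, against 273, 286 and 253 in Col-0 (log2 fold change -0.40, edgeR adjusted p = 0.156). HIRA had 235, 286 and 454 counts in the libraries labelled hira-1, against 223, 300 and 203 in Col-0 (log2 fold change +0.56, edgeR adjusted p = 0.198). Neither label was therefore borne out by a called fall of its gene, and counts per gene cannot check the alleles. HIRA stood higher rather than lower, so every direction given below for that group is that of libraries labelled hira-1. The name fas2-4 is likewise that of the label. The number of genes called moved with single libraries. It was 1948 in fas2-4, 5661 without fas2-4 replicate 1, 1039 without fas2-4 replicate 3 and 643 to 725 without any 1 of the Col-0 libraries. It was 2575 in the libraries labelled hira-1, 29, 5021 and 443 without hira-1 replicates 1, 2 and 3, and 19, 50 and 3553 without Col-0 replicates 1, 2 and 3 of experiment 1. In the libraries labelled hira-1, change also followed exon length: the median log2 fold change was +0.55 for 2452 genes under 1000 bases and -0.44 for 7360 genes of 2000 bases or more. In fas2-4 those medians were +0.07 and 0.0041. HIRA has 4144 exonic bases, and its value above carries no correction for exon length. All genes of the SIM and SMR type here are under 1000 bases long and all KRP genes are longer, so the hira-1 values of the members tested are also given after a correction for exon length.

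Levels are given below as the deposited TMM-scaled TPM, a score made from counts per gene length and per library, for comparing genes within an experiment. SMR1, SIM and KRP4 share 40.3%, 31.4% and 38.7% of their exonic bases with other counted genes. Reads from shared bases may not have been counted, so these genes may stand too low in the orders below. Of the 10 genes, 9 were detected and tested. In Col-0 of experiment 2, KRP1 stood highest with a mean of 29.4, followed by SMR1 (21.2), KRP2 (17.7), KRP6 (9.33), KRP4 (6.43), KRP3 (5.33), SMR4 (3.43), SIM (3.21) and SMR7 (1.07). Only KRP4 and KRP3, and SMR4 and SIM, overlapped with their neighbour in that order. Col-0 of experiment 1 had the same 3 genes on top, KRP1 (31.5), SMR1 (19.3) and KRP2 (14.7), and again SMR7 as the lowest detected gene (0.856). In fas2-4 the order was led by SMR7 (57.6), and SMR1 (24.5) and KRP2 (23.4) came next and overlapped. It was led in the libraries labelled hira-1 by SMR1 (34.2), KRP1 (25.02) and SIM (16.8), neighbours that overlapped, with KRP3 (1.21) at the bottom.

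**Figure D1:**
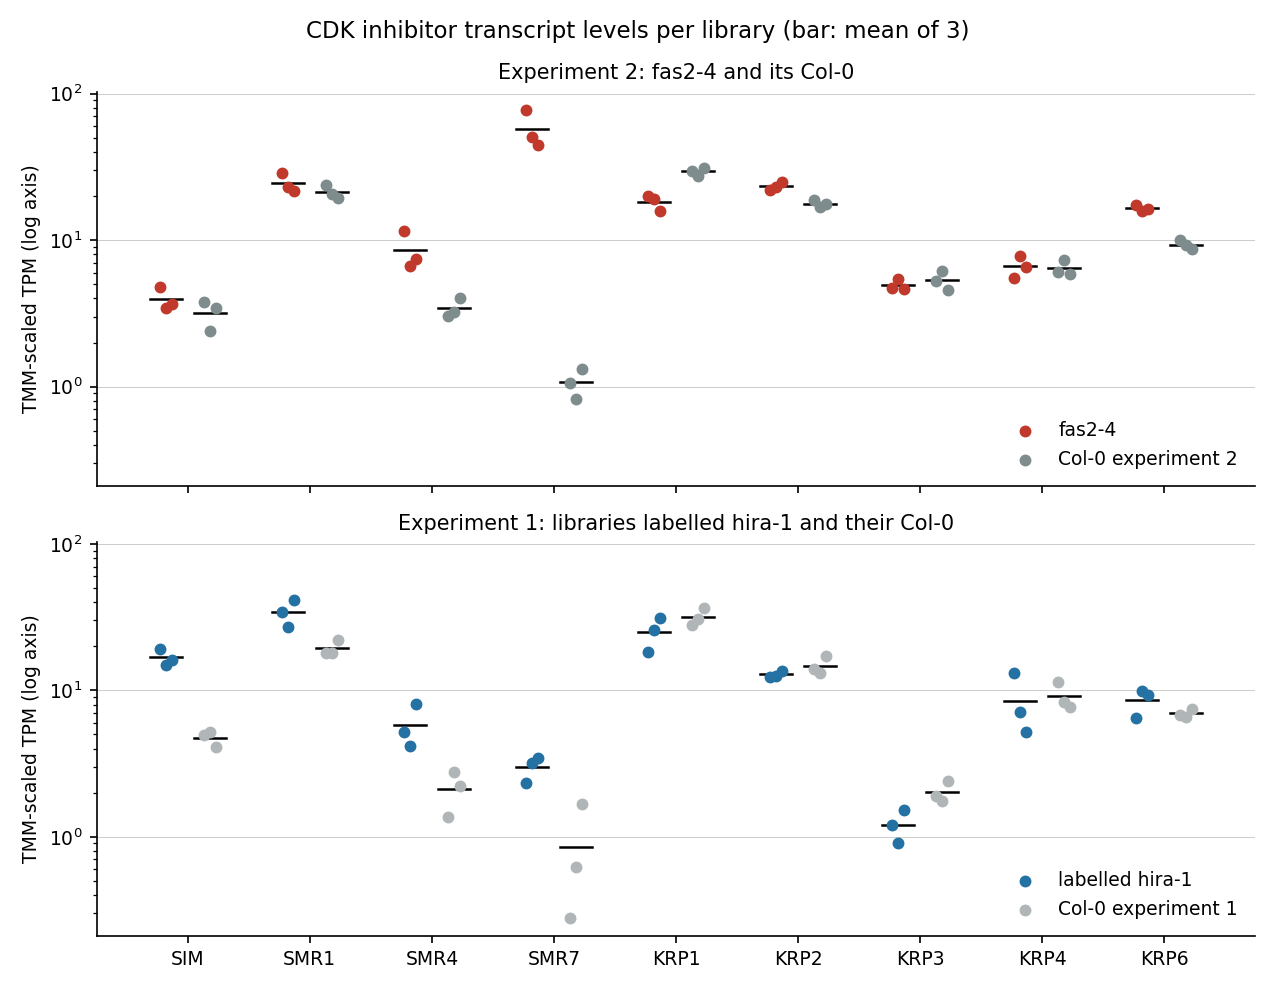
TMM-scaled TPM (log axis) of the 9 detected CDK inhibitor genes in each library; coloured points are mutant libraries, grey points Col-0, and bars the mean of 3. SMR7 sits at 44.5 to 77.5 in fas2-4, against 0.818 to 1.32 in Col-0, and SIM at 15.0 to 19.2 in the libraries labelled hira-1, against 4.12 to 5.22 in Col-0.

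SMR5 was listed at 0 in all 12 libraries and was not tested. The gene (AT1G07500 at chr1:2304766-2305031, minus strand, 266 bases, TAIR10.1) lies wholly inside an exon of FTSH10, which runs on the plus strand and had 1162, 1849 and 1653 counts in fas2-4 libraries, against 1089, 1233 and 1228 in Col-0. Of the 1108 genes whose exonic bases are all shared with another counted gene, 1097 (99.0%) were at 0 in all 12 libraries, against 4084 of 22776 genes (17.9%) that share none. A count of 0 allows up to 3 counts, which is 0.0759 to 0.0764 CPM (counts scaled to the library total) in experiment 2 and 0.137 to 0.145 CPM in experiment 1, for counting error only. For a gene inside another gene, this limit holds only for reads the counting could assign to it. The tables therefore give no level for SMR5 in any group.

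In fas2-4, 4 of the 9 tested inhibitors passed the test: SMR7, SMR4 and KRP6 rose and KRP1 fell. Over all 20004 genes tested, 9.74% were called, 6.78% higher and 2.96% lower. Among the 4 tested genes of the SIM and SMR type, 2 rose and none fell, with a median log2 fold change of +0.81. Among the 5 KRP genes 1 rose and 1 fell, with a median of +0.04, and the median over all genes tested was +0.03.

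SMR7 (AT3G27630 at chr3:10230892-10231567, minus strand) changed most. It had 77.5, 50.7 and 44.5 TMM-scaled TPM in the fas2-4 libraries, against 1.065, 0.818 and 1.32 in Col-0, from 1405, 981 and 873 counts against 19, 14 and 22. Every fas2-4 library was far above every Col-0 library, and replicate 1 of fas2-4 was the highest. SMR7 was 53.6-fold higher in fas2-4 (log2 fold change 5.74, SE 0.30, edgeR adjusted p = 5.94e-05). It passed the test in all 14 other settings tried, with log2 fold changes of 5.43 to 5.91 when 1 library was left out.

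SMR4 (AT5G02220 at chr5:441452-442187, minus strand), known for slowing divisions in the stomatal lineage, had 11.5, 6.64 and 7.49 TMM-scaled TPM in fas2-4 libraries, against 3.04, 3.22 and 4.03 in Col-0. The groups did not overlap. It was 2.49-fold higher in fas2-4 (log2 fold change 1.32, SE 0.25, edgeR adjusted p = 0.0148). The call was lost without any 1 of the Col-0 libraries (edgeR adjusted p = 0.0843, 0.0732 and 0.0606 without replicates 1, 2 and 3), while the log2 fold change stayed between 1.0075 and 1.47.

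SIM and SMR1 did not pass the test in fas2-4. SIM (AT5G04470 at chr5:1266625-1267416, minus strand) had 4.805, 3.44 and 3.66 TMM-scaled TPM in fas2-4 libraries, against 3.78, 2.39 and 3.44 in Col-0 (log2 fold change 0.30, SE 0.25, edgeR adjusted p = 0.509). SMR1 (AT3G10525 at chr3:3281306-3282131, minus strand) had 28.9, 23.0 and 21.7 in fas2-4 libraries, against 23.6, 20.6 and 19.4 in Col-0 (log2 fold change 0.21, SE 0.16, edgeR adjusted p = 0.486). For both genes the groups overlapped. SIM shares 31.4% of its exonic bases with AT5G04475 and SMR1 shares 40.3% with AT3G10527, and both of those neighbours were at 0 in all 12 libraries.

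The KRP genes moved in different directions in fas2-4. KRP1 (AT2G23430 at chr2:9976590-9978090, minus strand), whose excess is known to give serrated leaves with enlarged cells, had 19.9, 19.0 and 15.8 TMM-scaled TPM in fas2-4 libraries, against 29.6, 27.4 and 31.3 in Col-0. It fell by 0.69 on the log2 scale (SE 0.14, edgeR adjusted p = 0.0163), which is 1.61-fold lower, with no overlap. The call for KRP1 was lost without fas2-4 replicate 3 (edgeR adjusted p = 0.0579) and without Col-0 replicate 1, 2 or 3 (edgeR adjusted p = 0.0823, 0.0566 and 0.0813). KRP6 (AT3G19150 at chr3:6616330-6617951, minus strand), a protein known to be removed in the male germ line before its division, had 17.5, 15.9 and 16.3 in fas2-4 libraries, against 10.03, 9.31 and 8.65 in Col-0. It was 1.77-fold higher (log2 fold change 0.82, SE 0.13, edgeR adjusted p = 0.00622) and passed the test in all 14 other settings.

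KRP2 (AT3G50630 at chr3:18800306-18801595, plus strand), an inhibitor that auxin lowers in root founder cells, had 22.1, 23.2 and 24.9 TMM-scaled TPM in fas2-4 libraries, against 18.7, 16.9 and 17.5 in Col-0. The libraries did not overlap, but edgeR did not call the difference (log2 fold change 0.40, SE 0.12, adjusted p = 0.071). DESeq2 called it (adjusted p = 0.0441), and so did edgeR without fas2-4 replicate 1 (adjusted p = 0.0148). Of 14 other settings these 2 alone called KRP2, with edgeR adjusted p up to 0.262. KRP3 (AT5G48820 at chr5:19792270-19794480, minus strand) had 4.71, 5.43 and 4.67 in fas2-4 libraries, against 5.27, 6.15 and 4.56 in Col-0 (log2 fold change -0.11, edgeR adjusted p = 0.763). KRP4 (AT2G32710 at chr2:13873362-13876737, plus strand), known to tie division to cell size in the shoot meristem, had 5.54, 7.81 and 6.56 in fas2-4 libraries, against 6.04, 7.37 and 5.87 in Col-0 (log2 fold change 0.04, edgeR adjusted p = 0.913). KRP4 shares 38.7% of its exonic bases with CB5-B on the other strand, so its counts are less certain than those of the other KRP genes, which share none. Of the 9 tested genes, 5 had fas2-4 and Col-0 libraries that did not overlap, where 31.7% of all genes tested did not.

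**Figure D2:**
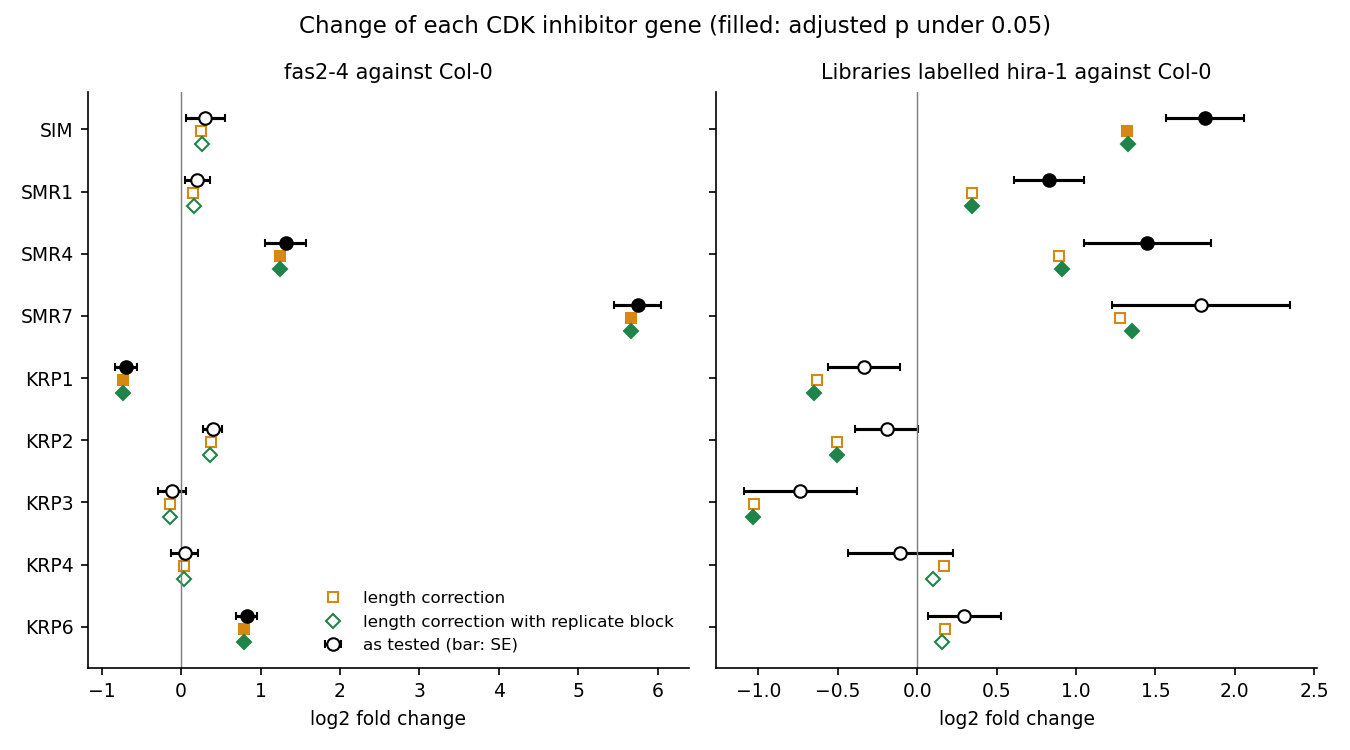
Log2 fold change of each gene in fas2-4 (left) and in the libraries labelled hira-1 (right) against Col-0; black points carry the SE, squares are corrected for exon length, diamonds for exon length with replicate number as a block, and filled symbols have an edgeR adjusted p under 0.05. The panels have different scales; SMR7 stands at 5.74 in fas2-4, and on the right the SIM and SMR genes lie above 0 and KRP1, KRP2 and KRP3 below.

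The sequences upstream of the transcription starts are shown for SMR7 and SMR4 because these were the SMR genes that rose in fas2-4. They are 250 bases each, from the RefSeq genome TAIR10.1, minus strand, at chr3:10231568-10231817 for SMR7 and chr5:442188-442437 for SMR4. Capitals mark matches to CTT, then 7 bases of any kind, then AAG, a pattern described for SOG1 that reads the same on both strands, and to the E2F letters TTTCCCGC, TTTGGCGC, TTTGCCGC or TTTCGCGC on either strand. No overlap between the patterns was found in these windows.
SMR7: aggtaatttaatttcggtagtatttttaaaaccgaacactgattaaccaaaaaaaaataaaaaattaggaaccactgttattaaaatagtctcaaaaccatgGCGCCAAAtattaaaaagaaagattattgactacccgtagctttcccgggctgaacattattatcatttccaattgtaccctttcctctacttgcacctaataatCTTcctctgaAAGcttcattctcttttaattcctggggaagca
SMR4: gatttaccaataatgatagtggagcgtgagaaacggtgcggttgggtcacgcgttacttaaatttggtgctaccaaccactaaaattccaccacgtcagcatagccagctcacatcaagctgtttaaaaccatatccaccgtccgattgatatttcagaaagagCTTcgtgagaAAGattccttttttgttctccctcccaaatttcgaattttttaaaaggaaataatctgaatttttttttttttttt

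In windows of 250 bases before to 50 bases after the start, the CTT and AAG pattern occurred in 4 of the 10 members, SMR4, SMR5, SMR7 and KRP6, and in 3230 of 27443 protein-coding genes (11.8%). The match begins 86 bases before the start in SMR4 and 43 bases before it in SMR7, and SMR7 has a further match that begins 27 bases inside the transcript. SMR5 has matches that begin 96 and 32 bases before its start. In KRP6 the match begins 5 bases before the start and runs into the transcript. SMR4, SMR7 and KRP6 rose in fas2-4, and SMR5 could not be tested. The pattern also lies in this window of AT5G40460 and KRP7, related genes that were not called in fas2-4 (log2 fold changes -0.22 and 0.43). The E2F letters occurred in SMR7 alone among the members, 148 bases before its start on the other strand, and in 483 of the 27443 genes (1.76%). AT5G40460 has 3 matches to the E2F letters in its window. A match is a description of letters and not evidence of binding. The 30-base stretches around the matches of KRP6 (chr3:6617935-6617964) and SMR5 (chr1:2305106-2305135 and chr1:2305042-2305071), all on the minus strand, are given for comparison with SMR7.
KRP6: ttcaattgCTTtgaaaggAAGccaaaaagg
SMR5, farther match: cctagcaaCTTccagaacAAGctacggtca
SMR5, nearer match: ttaagaacCTTattaggaAAGtgcgagaga

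For the libraries labelled hira-1, the 3 inhibitors that passed the test were all of the SIM and SMR type: SIM, SMR1 and SMR4 rose, and no KRP gene was called. Over all 18739 genes tested, 13.7% were called, 6.94% higher and 6.8% lower. The median log2 fold change was +1.62 over the 4 tested SIM and SMR genes and -0.19 over the 5 KRP genes, beside -0.02 over all genes tested. Among genes under 1000 bases, the length of the SIM and SMR genes, 20.9% were called higher. With the correction for exon length, SIM alone of the members kept its call, in a fit that called 10.2% of all genes.

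SIM had 19.2, 15.0 and 16.2 TMM-scaled TPM in the libraries labelled hira-1, against 4.94, 5.22 and 4.12 in Col-0. Each library labelled hira-1 was above every Col-0 library. SIM was 3.51-fold higher (log2 fold change 1.81, SE 0.24, edgeR adjusted p = 0.0133), and 1.32 on the log2 scale after the length correction (adjusted p = 0.0179). The call was lost without hira-1 replicate 1 (edgeR adjusted p = 0.0736) and without Col-0 replicate 1 or 2 (0.086 and 0.051), with log2 fold changes of 1.70 to 1.91 over all libraries left out. SIM is a regulator of leaf hairs, and the summed level of 5 leaf hair markers was 25.9 to 43.1 CPM in the libraries labelled hira-1, against 17.5 to 28.6 CPM in Col-0, with 1 of the 5 called higher (MYB106, log2 fold change 2.21, edgeR adjusted p = 0.024) and none at 0. The others stood at 0.67 (TRY), 0.14 (GL1), -0.21 (GL2) and -0.34 (GL3), uncalled, and the list median was 0.14. The part of these markers in the rise of SIM was not tested.

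SMR1 had 34.05, 27.1 and 41.5 TMM-scaled TPM in the libraries labelled hira-1, against 17.9, 18.1 and 21.9 in Col-0. It was 1.78-fold higher (log2 fold change 0.83, SE 0.22, edgeR adjusted p = 0.0418), and the value was 0.35 after the length correction (adjusted p = 0.151). SMR4 had 5.22, 4.14 and 8.12 in the libraries labelled hira-1, against 1.37, 2.77 and 2.21 in Col-0. It was 2.73-fold higher (log2 fold change 1.45, SE 0.40, edgeR adjusted p = 0.0455), and the value was 0.89 after the length correction (adjusted p = 0.111). For both genes the groups did not overlap. Leaving out 1 library ended the call of SMR1 in 4 of 6 cases and that of SMR4 in 5 of 6, with edgeR adjusted p up to 0.167 and 0.172.

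SMR7 had 2.33, 3.195 and 3.43 TMM-scaled TPM in the libraries labelled hira-1, against 0.28, 0.62 and 1.67 in Col-0, from 23, 34 and 33 counts against 3, 7 and 18. The groups did not overlap, and the log2 fold change was 1.78 (SE 0.56, edgeR adjusted p = 0.0613), or 1.28 after the length correction (adjusted p = 0.129). Its level in the libraries labelled hira-1 was low, and Col-0 replicate 3 lay nearest to them. Without that library the log2 fold change was 2.71 (edgeR adjusted p = 0.0255), and this was the only 1 of 6 fits without a library that called SMR7. Over those fits the log2 fold change was 1.37 to 2.71, with edgeR adjusted p up to 0.192.

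Replicate numbers were taken to pair the libraries of experiment 1, from correlations in the same counts, as described with the processing. With replicate number as a block, 5 inhibitors passed the test in place of 3: SIM, SMR1, SMR4, SMR7 (log2 fold change 1.91, edgeR adjusted p = 0.00121) and, lower, KRP1 (-0.36, adjusted p = 0.0233). That fit called 51.2% of all genes tested, a share near that of the members. With block and length correction in 1 fit, 7 of the 9 passed, where 38.5% of all genes did. SIM (1.33, edgeR adjusted p = 5.08e-05), SMR1 (0.34, 0.0437), SMR4 (0.91, 0.0307) and SMR7 (1.35, 0.0309) were higher. KRP1 (-0.65, edgeR adjusted p = 0.000481), KRP2 (-0.50, 0.0106) and KRP3 (-1.04, 0.0236) were lower.

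The KRP levels in the libraries labelled hira-1 were as follows. KRP1 had 18.2, 25.7 and 31.1 TMM-scaled TPM, against 27.9, 30.4 and 36.2 in Col-0, with overlap (log2 fold change -0.34, SE 0.23, edgeR adjusted p = 0.301, and -0.63 after the length correction). KRP2 had 12.4, 12.6 and 13.6, against 13.9, 13.1 and 17.0 in Col-0, with overlap (-0.19, SE 0.20, edgeR adjusted p = 0.493, and -0.50 after the length correction). KRP3 had 1.21, 0.904 and 1.53, against 1.90, 1.755 and 2.41 in Col-0, with no overlap (-0.74, SE 0.36, edgeR adjusted p = 0.164, and -1.03 after the length correction). KRP3 rested on 17 to 26 counts in the libraries labelled hira-1 and 35 to 46 in Col-0, and its change was not called with the block alone either (edgeR adjusted p = 0.0825).

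KRP4 had 13.2, 7.12 and 5.18 TMM-scaled TPM in the libraries labelled hira-1, against 11.4, 8.27 and 7.71 in Col-0 (log2 fold change -0.11, SE 0.33, edgeR adjusted p = 0.836), and its sign turned with the length correction (+0.17). KRP6 had 6.50, 9.95 and 9.26, against 6.78, 6.55 and 7.51 in Col-0 (0.30, SE 0.23, edgeR adjusted p = 0.363, and 0.18 after the length correction). The groups overlapped for both. Libraries did not overlap in 5 of the 9 genes (SIM, SMR1, SMR4 and SMR7 higher, KRP3 lower), where 38.6% of all genes tested did not.

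**Figure D3:**
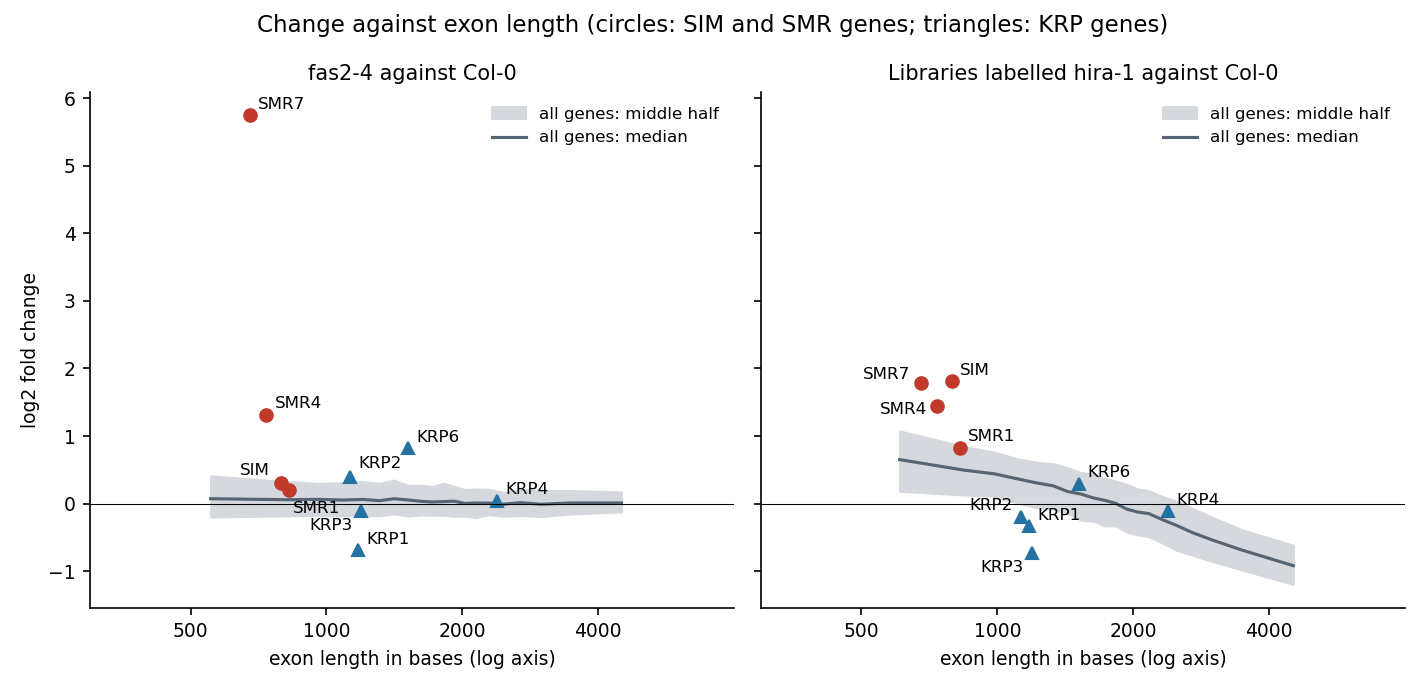
Log2 fold change against exon length (log axis) in fas2-4 (left) and in the libraries labelled hira-1 (right), with the median of 20 length classes as a line and the interquartile range as a band. In the libraries labelled hira-1 the line falls with length, SIM, SMR4 and SMR7 lie above the band, SMR1 near its upper edge, and KRP1, KRP2 and KRP3 below it.

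The responses to the mutations were compared over all 12 libraries, as the log2 fold change in fas2-4 minus that in the libraries labelled hira-1. Of the 9 inhibitors, 2 differed, where 11.6% of 20152 genes did. SMR7 changed more in fas2-4 (difference 3.94, SE 0.64, edgeR adjusted p = 0.00535), and SIM changed more in the libraries labelled hira-1 (difference -1.52, SE 0.33, edgeR adjusted p = 0.0164). The difference for SMR7 was called without each library in turn, and that for SIM in 11 of 12 such fits, the exception being Col-0 replicate 1 of experiment 2 (adjusted p = 0.0513). After the length correction the differences were 4.34 for SMR7 and -1.13 for SIM, both still called (edgeR adjusted p = 0.000495 and 0.0324). SMR4, higher in both mutants, gave a difference of -0.14 (SE 0.47, edgeR adjusted p = 0.855), with an SE too wide to show that its changes were alike. For KRP2 the difference was 0.58 (SE 0.20, edgeR adjusted p = 0.0769), and 0.84 with the length correction (adjusted p = 0.0124). With replicate number as a block, SMR1 (-0.62, edgeR adjusted p = 0.0265) and KRP2 (0.57, adjusted p = 0.035) were also called, in a fit that called 32.1% of all genes tested. That fit also blocked experiment 2, where the numbers were not taken to pair libraries.

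Summed over the members, the inhibitor transcripts came to 192.5, 155.1 and 145.5 TMM-scaled TPM in fas2-4 libraries, against 101.2, 94.1 and 96.1 in Col-0. The KRP sum was 69.8, 71.4 and 68.2 in fas2-4 libraries, against 69.7, 67.1 and 67.9 in Col-0, so that the fall of KRP1 and the rise of KRP6 stood side by side in a KRP sum that overlapped between the groups. SMR7 alone held 40.3%, 32.7% and 30.6% of the summed level in fas2-4 libraries, against 1.05%, 0.869% and 1.38% in Col-0. The SIM and SMR genes held 54.1%, 46.8% and 53.3% of the sum in the libraries labelled hira-1, against 28.3%, 30.7% and 29.7% in Col-0. SMR7 held 2.08%, 3.02% and 2.64% of it there, and the KRP sum was 51.5, 56.3 and 60.7 TMM-scaled TPM, against 61.9, 60.1 and 70.9 in Col-0. These sums carry no correction for exon length or for shared exonic bases, and the SIM and SMR genes are the shorter ones.

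**Figure D4:**
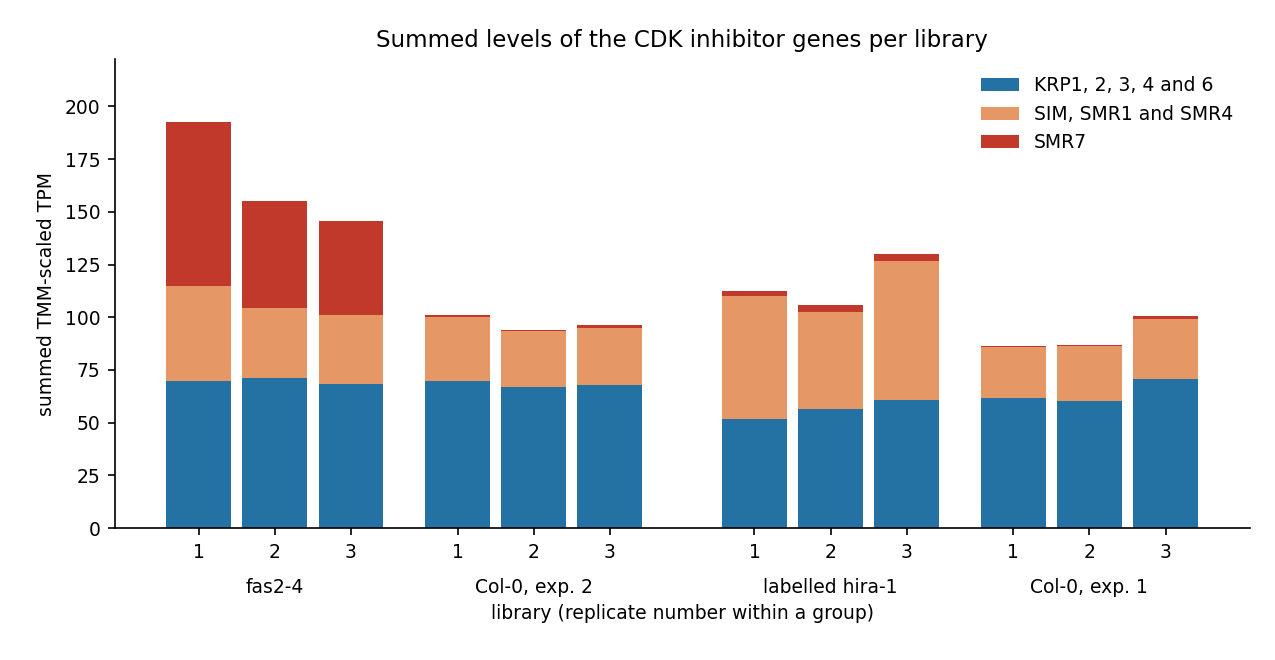
Summed TMM-scaled TPM of the KRP genes (blue), of SIM, SMR1 and SMR4 (orange) and of SMR7 (red) in each library; numbers on the axis are replicates. The red segment is large in fas2-4 libraries, and the orange segment is larger in the libraries labelled hira-1 than in their Col-0.

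Of 6 further genes of these families, none passed the test in fas2-4 and 2 rose in the libraries labelled hira-1. Over all genes tested, 9.74% were called in fas2-4, and 6.94% were called higher in the libraries labelled hira-1. AT5G40460, annotated as a CDK inhibitor, had 7.67, 6.99 and 9.25 TMM-scaled TPM in the libraries labelled hira-1, against 3.89, 2.95 and 4.22 in Col-0 (log2 fold change 1.11, SE 0.26, edgeR adjusted p = 0.0321). After the length correction it was at 0.83 and still called (edgeR adjusted p = 0.0391). The call held in 2 of 6 fits that left out a library. KRP7 had 7.51, 7.215 and 8.98, against 4.398, 4.22 and 4.11 in Col-0 (0.89, SE 0.23, edgeR adjusted p = 0.0405). Its call was lost with the length correction (0.60, edgeR adjusted p = 0.077) and held in 1 of 6 fits that left out a library. The others in the libraries labelled hira-1 were AT1G08180 at 0.54, AT1G10690 at 0.43, AT5G02420 at -0.09 and KRP5 at -0.48, with edgeR adjusted p from 0.167 to 0.891. With the replicate block AT1G08180 was called as well (adjusted p = 0.0428). In fas2-4 the log2 fold changes were 0.43 for KRP7, 0.36 for AT5G02420, 0.04 for AT1G10690, -0.04 for KRP5, -0.22 for AT5G40460 and -0.24 for AT1G08180, with edgeR adjusted p from 0.181 to 0.945. AT5G40460 differed between the mutants (difference -1.33, SE 0.35, edgeR adjusted p = 0.03).

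Of a list of checkpoint kinases and transcription factors, 3 of 8 tested genes rose in fas2-4 and none fell (median log2 fold change 0.30). Of all genes tested there, 6.78% were called higher. ANAC044 and ANAC085, NAC transcription factors known to act after SOG1 in the arrest before mitosis, rose most. ANAC044 had 15.9, 20.5 and 22.6 TMM-scaled TPM in fas2-4 libraries, against 0.549, 0.733 and 0.613 in Col-0 (log2 fold change 4.95, SE 0.20, edgeR adjusted p = 1.25e-05). ANAC085 had 89, 98 and 96 counts in fas2-4 libraries, against 1, 4 and 1 in Col-0 (5.33, SE 0.39, edgeR adjusted p = 0.000274). WEE1, a kinase that restrains CDKs, was 1.68-fold higher (0.75, edgeR adjusted p = 0.0271), a call held in 1 of 6 fits that left out a library. SOG1 itself stood at 0.26 (edgeR adjusted p = 0.302), and no member of the list other than those 3 was called.

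Of the same list, 1 of 7 tested checkpoint genes rose and 1 fell in the libraries labelled hira-1 (median -0.10). Of all genes tested there, 6.94% were called higher and 6.8% lower. ANAC044 had 1.39, 3.17 and 1.43 TMM-scaled TPM, against 0.769, 0.452 and 0.654 in Col-0 (log2 fold change 1.66, SE 0.42, edgeR adjusted p = 0.0386), with 1.64 after the length correction (adjusted p = 0.0421). Its call held in 1 of 6 fits that left out a library. ATM, the kinase that senses DNA breaks and the longest gene of the list at 9734 exonic bases, was at -1.43 (edgeR adjusted p = 0.0495) and at -0.08 after the length correction (adjusted p = 0.862). ANAC085 had 5, 5 and 7 counts, against 0, 4 and 7 in Col-0, too few to be tested. The change of ANAC044 was larger in fas2-4 (difference 3.26, SE 0.47, edgeR adjusted p = 0.00307).

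Among the CDKs and the CKS proteins that bind them, 5 of 7 rose in fas2-4 (median log2 fold change 0.95). Of all genes tested, 6.78% were called higher in fas2-4 and 6.94% in the libraries labelled hira-1. CKS2 had 90.9, 79.7 and 81.8 TMM-scaled TPM in fas2-4 libraries, against 35.6, 37.1 and 35.7 in Col-0 (1.22, SE 0.11, edgeR adjusted p = 0.000861). CDKB1;1 (1.23, edgeR adjusted p = 0.00204) and CDKB2;1 (0.95, adjusted p = 0.00229), kinases of the mitotic phase, rose too, while CDKA;1, the main kinase of the cycle, was at 0.12 (adjusted p = 0.75). Among libraries labelled hira-1, 2 of 7 genes rose (median 0.53), CKS2 at 1.17 (edgeR adjusted p = 0.023) and CDKB1;1 at 0.93 (adjusted p = 0.0367). After the length correction CKS2, with 762 exonic bases, was at 0.66 and CDKB1;1 at 0.73, both still called (edgeR adjusted p = 0.0283 and 0.0387). These calls held in 3 and 2 of 6 fits that left out a library. CDKB2;1 was at -0.13 there and differed between the mutants (difference 1.06, SE 0.28, edgeR adjusted p = 0.0314).

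D-type cyclins, which the inhibitors bind together with CDKA;1, rose in 2 of 10 cases in fas2-4 (median -0.04) and in 4 of 9 in the libraries labelled hira-1 (median 0.61), where 6.78% and 6.94% of all genes were called higher. In fas2-4 these were CYCD4;1 (0.96, edgeR adjusted p = 0.00685) and CYCD3;3 (0.54, adjusted p = 0.047), and the call for CYCD3;3 was lost in 5 of 6 fits without 1 library. Among libraries labelled hira-1 they included CYCD3;3 (1.12, edgeR adjusted p = 0.024), CYCD4;2 (1.495, adjusted p = 0.0408) and CYCD4;1 (1.02, adjusted p = 0.0419). These 3 were at 0.94, 1.29 and 1.13 after the length correction and still called (edgeR adjusted p = 0.0197, 0.045 and 0.0305). Their calls held in 3, 2 and 2 of 6 fits that left out a library. None of 5 CDK-activating kinase genes passed the test in either mutant.

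Of 6 genes for the turnover of KRP proteins, 1 rose in fas2-4 (median 0.08) and none passed in the libraries labelled hira-1 (median 0.13). It was SKP2B, an F-box protein that targets KRP1 for destruction, with 3.33, 4.34 and 3.63 TMM-scaled TPM in fas2-4 libraries, against 1.36, 2.03 and 1.48 in Col-0 (log2 fold change 1.21, SE 0.21, edgeR adjusted p = 0.00874). Of 9 genes for RBR1 and the E2F, DP and DEL factors, 1 rose in fas2-4 (DEL3, 0.93, edgeR adjusted p = 0.0418). None passed in the libraries labelled hira-1. Of 8 endoreduplication regulators, 1 rose in fas2-4 (CYCA2;4, a cyclin that keeps cells in division, 0.82, edgeR adjusted p = 0.0342) and none passed in the libraries labelled hira-1. The calls for DEL3 and CYCA2;4 each held in 1 of 6 fits that left out a library. Over all genes tested, 6.78% were called higher in fas2-4.

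**Figure D5:**
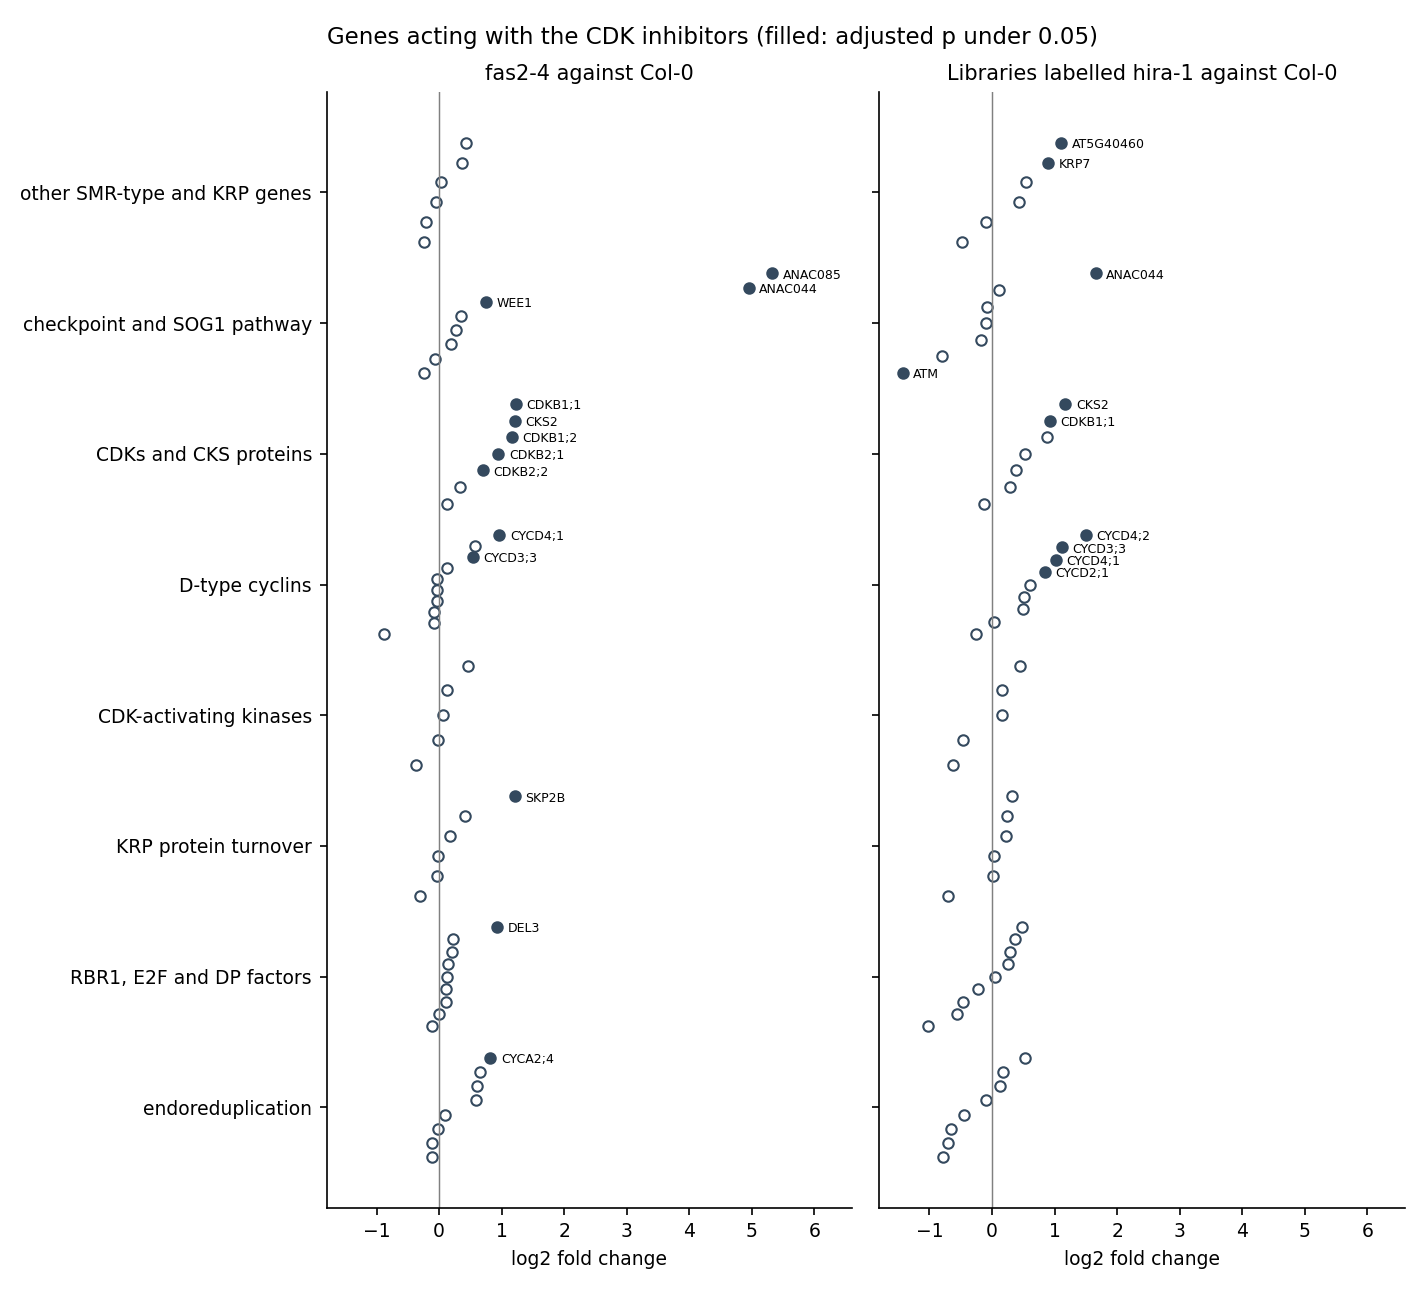
Log2 fold change of each tested gene of the lists that act with the CDK inhibitors, in fas2-4 (left) and in the libraries labelled hira-1 (right); each point is a gene, and filled, named points have an edgeR adjusted p under 0.05. ANAC044 and ANAC085 stand at 4.95 and 5.33 in fas2-4, and 5 of 7 genes of the CDK list are filled there, against 2 of 7 in the libraries labelled hira-1.

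In fas2-4, where 9.74% of all genes tested were called, so were 4 of 4 tested shoot meristem and 2 of 4 green leaf markers. Of the leaf hair and stomatal lineage markers, 1 of 5 each was called there, and no tested root marker was. In the libraries labelled hira-1, 1 of 5 leaf hair and 1 of 5 stomatal lineage markers were called, beside 13.7% of all genes tested. No marker of the other lists was called in those libraries. All 4 tested shoot meristem markers rose in fas2-4, with a summed level of 42.2 to 45.3 CPM over 6 markers, against 18.0 to 22.7 CPM in Col-0, and it was 7.39 to 13.2 CPM in the libraries labelled hira-1, against 5.81 to 11.5 CPM in Col-0. Leaf hair markers summed to 15.9 to 18.0 CPM in fas2-4, against 31.9 to 35.9 CPM in Col-0, with TRY as the 1 of 5 that fell (log2 fold change -1.69, edgeR adjusted p = 0.000662). The other 4 lay between -0.30 and 0.26, and the list median was -0.06. Stomatal lineage markers summed to 49.3 to 60.2 CPM in fas2-4, against 65.1 to 69.9 CPM in Col-0, and to 41.9 to 47.9 CPM in the libraries labelled hira-1, against 44.6 to 58.7 CPM in Col-0, with 1 of 5 lower in each. Green leaf markers summed to 30106 to 34277 CPM in fas2-4, against 43483 to 50255 CPM in Col-0, with 2 of 4 lower, and none of 4 passed in the libraries labelled hira-1 (35857 to 45164 CPM, against 39896 to 48447 CPM in Col-0). Of 5 root markers, SCR had 340 to 2087 counts and SHR 186 to 560 over the 12 libraries, COBL9 had 0 to 8, and EXPA7 and PLT1 were at 0 in all. Their sum was 45.5 to 55.0 CPM in fas2-4, against 60.8 to 65.2 CPM in Col-0, and 26.3 to 35.3 CPM in the libraries labelled hira-1, against 27.5 to 33.5 CPM in Col-0, and neither of the 2 tested was called in either mutant. The part of these markers in the changes of the inhibitors was not tested. In RNA pooled from many cells, fewer cells of a type and less RNA per cell cannot be told apart.

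The genes whose pattern over the 12 libraries lay nearest to each called member were sought among 20152 genes, by the root mean square difference of log2 CPM centred on each gene's mean. The patterns share the library effects and the difference between experiments. SMR7 was nearest to AT4G22960 (0.619) and AT2G18193 (0.705), which had log2 fold changes of 6.46 and 6.13 in fas2-4. SIM was nearest to AT1G14450 (0.262) and AT3G52105 (0.299), and SMR4 to AT3G47480 (0.265) and AT1G05710 (0.273). SMR1 was nearest to GGH1 (0.0726) and AT4G36420 (0.0805), at a distance well under that of the other members. KRP1 was nearest to AT5G51010 (0.147) and FBA1 (0.154), and KRP6 to AUR2 (0.153), a mitotic Aurora kinase, and HMGA (0.167).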

How the data were processed

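RNA sequencing of 12 seedling libraries was used. RNA was extracted with columns and a company built the libraries, per the labels' protocols. Per the submitters' processing notes, fastp 0.23.4, HISAT2 2.2.1 and the build TAIR10 were used. The counting program, the annotation and the use of strand are not given in the sources used here, so genes on opposite strands that overlap cannot be told apart in the counts. The authors deposited raw read counts per gene and TMM-scaled TPM values, a score per gene, in separate tables for each experiment. The 24 value columns were all used, and levels were compared only within an experiment. In 10 libraries, each set against the first mutant library of its experiment, the ratio of deposited TPM to count lay within 0.5% of 1 factor per library for 100% of genes with at least 200 counts. Positions come from RefSeq TAIR10.1 (32548 of 32833 identifiers matched).

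Counts were filtered with filterByExpr, normalized by TMM, and the 2-sided quasi-likelihood test of edgeR 4.0.16 (R 4.3.3, robust fit) compared each mutant with the Col-0 of its own experiment. Calls needed an adjusted p (Benjamini-Hochberg, over all tested genes) below 0.05. The difference between mutants was a contrast over all 12 libraries. The script was tested on simulated data. Alternatives were RLE and upper-quartile scaling, no filter, DESeq2 1.42.0, all 12 libraries in 1 fit, a length correction (loess on log2 exon length as an offset, span 0.5), the replicate block, both together, and each library left out.

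Same-numbered libraries of experiment 1 deviated together (correlations of deviations from the group means 0.28, 0.54 and 0.64), so the numbers were taken to pair them. The labels state no pairing, and these correlations come from the same counts that were tested. In experiment 2 the correlations were -0.07, 0.16 and 0.01, and they were not. No pair of libraries within a group agreed within sampling noise.

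The members and lists were chosen with earlier results of these data known. Named genes are the 10 members, 6 further family genes, up to 3 called genes with the smallest adjusted p per list and comparison, and the 2 genes nearest in pattern to each called member. CDKA;1 and SOG1 were added after their values were seen, as were the markers named. The marker lists are leaf hair, root, shoot meristem, stomatal lineage and green leaf. Depth sets the precision, and limits from counts of 0 cover counting error only.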

Additional observations from a re-analysis of the deposited data

Results flagged for a closer look

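The change in fas2-4 and that in the libraries labelled hira-1 differed for 2 members and for 4 genes of the lists, each by edgeR's test of the difference itself over all 12 libraries. A positive value means a higher log2 fold change in fas2-4. SMR7 differed by 3.94 (edgeR adjusted p = 0.00535) and SIM by -1.52 (adjusted p = 0.0164). ANAC044 differed by 3.26 (edgeR adjusted p = 0.00307) and ANAC085 by 4.55 (adjusted p = 0.0164). The value of ANAC085 rests on 5 to 7 counts in the libraries labelled hira-1 and 0 to 7 in their Col-0. CDKB2;1 differed by 1.06 (edgeR adjusted p = 0.0314) and AT5G40460 by -1.33 (adjusted p = 0.03), and leaving out 1 library ended these calls in 9 and 8 of 12 fits. Each mutant shares its group in the sample titles with its own Col-0, so group and mutation are told apart only through those controls.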

How the results depend on the processing

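Direction held for SIM, SMR1, SMR4 and SMR7 in both mutants under all alternatives, and RLE or upper-quartile scaling and no filter moved no count of called genes or members by over 1.5 times. Beside 1948 genes called in fas2-4, the length correction gave 3342, length correction with block 3105, DESeq2 2980, all 12 libraries in 1 fit 1117, and leaving out 1 library 643 to 5661. Of members, 4 were called, and 2 to 5 with 1 library left out. Beside 2575 genes in the libraries labelled hira-1, the replicate block gave 9593, block with length correction 7211, DESeq2 4502, all 12 libraries 5999, and leaving out 1 library 19 to 5021. Members called there were 3, against 5 with the block, 1 with the length correction, 7 with both, 5 with all 12 libraries and 0 to 3 with 1 library left out. Of the difference, 2331 genes were called, against 6461 with the block, 5866 with block and length correction, 4181 by DESeq2 and 723 to 4844 with 1 library left out. Members there were 2, against 4 with the block, 5 with block and length correction and 1 to 3 with 1 library left out. The cause of these shifts was not tested.

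Signs turned only for small, uncalled values. With the length correction and with block and length correction, KRP4 stood at 0.17 and 0.10 in the libraries labelled hira-1, and the differences were 0.28 and 0.26 for SMR4 and -0.16 and -0.086 for KRP4. AT1G10690 stood at -0.011 in fas2-4 with the length correction. With 1 library left out, ranges in fas2-4 were -0.092 to 0.15 for KRP4, -0.22 to 0.00094 for KRP3, -0.12 to 0.19 for AT1G10690 and -0.18 to 0.041 for KRP5. In the libraries labelled hira-1 they were -0.58 to 0.17 for KRP4 and -0.40 to 0.22 for AT5G02420, and for the difference -0.44 to 0.17 for SMR4 and -0.12 to 0.62 for KRP4. In experiment 2, where the numbers were not taken to pair libraries, the block changed no call of a member. WEE1 (edgeR adjusted p = 0.0503), CYCD3;3 (0.0715) and CYCA2;4 (0.0534) lost their calls with it. Depth limits SMR7, KRP3 and ANAC085 in experiment 1, which rest on few counts.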

Other observations

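SMR5 was 1 of many small genes inside larger ones that were listed at 0. Among genes whose exonic bases are all shared with a single other counted gene, 892 of 893 with the other gene on the opposite strand were at 0 in all 12 libraries, and so were 95 of 95 with it on the same strand. SMR5's host FTSH10 fell in the libraries labelled hira-1, with 117, 160 and 118 counts against 382, 363 and 177 in Col-0 (log2 fold change -1.11, edgeR adjusted p = 0.0432), and stood at 0.23 in fas2-4 (adjusted p = 0.419). FTSH10 has 6715 exonic bases, a length at which most genes were lower in the libraries labelled hira-1.

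In a wider window of 1000 bases before the start, the CTT and AAG pattern occurred in SIM, SMR4, SMR5, SMR7 and KRP1 and in 33.3% of 27443 protein-coding genes, and the E2F letters occurred in SMR4 and SMR7 and in 4.46% of those genes. This window was chosen after the shorter one had been examined.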
